A study of Mus musculus with 206 samples.

Results

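The hypothalamus libraries of this study were examined for 1 quantity, the interaction between perinatal morphine and an adult challenge with lipopolysaccharide (LPS, a bacterial cell wall component that activates innate immunity). All H3K27ac libraries labelled hypothalamus were used, 41 of the 174 libraries of the series with a peak list. H3K27ac is acetylation of lysine 27 on histone H3, and it was profiled by MOWChIP-seq, a microfluidic ChIP-seq for small samples, in about 10000 nuclei per library sorted for the neuronal marker NeuN. The mice were C57BL/6NTac, 22 females and 19 males, adult at collection, and each library came from 1 animal. Dams carried an osmotic minipump with morphine or saline in gestation, and the pups were then injected subcutaneously with morphine (10 mg/kg) or saline 2 times daily on postnatal days 1 to 14. As adults the mice received LPS or saline, and tissue was taken 2 h later. The groups were MOR-LPS (morphine, then LPS, 6 females and 4 males), MOR-SAL (morphine, then saline, 4 females and 8 males), SAL-LPS (saline, then LPS, 6 females and 5 males) and SAL-SAL (saline throughout, 6 females and 2 males), with 10, 12, 11 and 8 libraries in that order. Perinatal treatment was given to whole litters, and all 4 groups shared the injections and the transfer of pups to surrogate dams. The interaction was the difference between MOR-LPS and MOR-SAL less the difference between SAL-LPS and SAL-SAL, over the 13788 regions of the hypothalamus consensus set. The question is whether the acetylation difference that goes with LPS was itself different after perinatal morphine.

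H3K27ac marks active promoters and enhancers, and it is laid down by the acetyltransferases p300 and CBP and removed by histone deacetylases. Neurons of the hypothalamus set hormone release, feeding, temperature and the stress axis, and LPS engages these circuits through cytokines and prostaglandins. Morphine acts on opioid receptors coupled to inhibitory G proteins, which open inward rectifier potassium channels and lower cyclic AMP.

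The deposited lists held 20170 to 135368 peaks per library, and the mean was 76526 ± 34531 in MOR-LPS, 52875 ± 22872 in MOR-SAL, 49653 ± 14512 in SAL-LPS and 52154 ± 21879 in SAL-SAL (SD). Read depth per library is not in these lists, so no counting interval was possible. Promoters of neuronal marker genes were among the 10000 strongest peaks for 30.6% of the list in MOR-LPS (range 6.25 to 62.5), 46.4% in MOR-SAL (12.5 to 68.75), 42.6% in SAL-LPS (18.75 to 75.0) and 38.3% in SAL-SAL (18.75 to 56.25). No promoter of a microglial or endothelial marker was among them in any of the 41 libraries. Of the hypothalamic markers, the promoter of Hcrt (orexin) was among them in 29.3% of the libraries and those of the other 14 genes in no library. The Hcrt promoter was also among the strongest peaks in 13.6% of the hippocampus, 6.67% of the striatum and 2.38% of the prefrontal cortex libraries. Promoters of thalamic markers had a mean share of 1.25% in MOR-LPS (range 0 to 12.5) and 10.4% in MOR-SAL (0 to 50). These promoters had a mean share of 3.41% in SAL-LPS (0 to 25) and 20.3% in SAL-SAL (0 to 50). Those of oligodendrocyte markers had a mean share of 7.5% in MOR-LPS (range 0 to 33.3), 3.47% in MOR-SAL (0 to 16.7), 3.79% in SAL-LPS (0 to 16.7) and 8.33% in SAL-SAL (0 to 41.7), an interaction of 8.57 percentage points in the group means. Lane 7 appeared in the peak names of 28 libraries, and 10 of the 22 morphine libraries against 3 of the 19 saline libraries lay outside it.

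Each region was given its percentile rank in each library (0 to 100), by the highest −log10 p among the peaks that overlapped it. Regions without a peak in a library shared 1 low rank, which averaged 9.61 in MOR-LPS, 12.9 in MOR-SAL, 12.7 in SAL-LPS and 16.8 in SAL-SAL. With limma and sex as a term, 257 of 13788 regions (1.86%) had an interaction at an adjusted p under 0.05 (Benjamini-Hochberg over all regions), and the median standard error was 15.6 points. It was positive at 144 (1.04%) and negative at 113 (0.820%), with a median over all regions of −0.0414 points. In peak lists trimmed to the same length (the strongest 20170 of each library), 7 regions were called (0.0508%), 1 positive and 6 negative, and all 7 were among the 257. The called interactions ran from 34.9 to 77.4 points and from −81.8 to −34.1. The last region called lay near Tmcc1 (34.9 ± 10.5 points, SE) and the first not called near Rfc4 (−55.8 ± 16.8).

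The number of calls depended on the fit. With the identifier prefix, which stands for the litter, as a fixed replicate block limma called 0 regions (lowest adjusted p 0.136, 1389 at an unadjusted p under 0.05), and within the 28 lane 7 libraries also 0 (lowest adjusted p 0.0616, 1839 unadjusted). With the oligodendrocyte marker share as a term it called 68 and with the neuronal marker share 21, and fewer neurons and less acetylation per neuron cannot be told apart in these libraries. Leaving out 1 library gave 31 to 761 calls, and 26 of the 41 libraries moved the number by more than 1.5 times. It was 31 without MOR-LPS 14-0, 45 without MOR-LPS 14-4, 116 without 6-0, 128 without 15-1, 140 without 16-4 and 141 without 15-3 of that group. Without MOR-SAL 16-3 it was 69, and it was 106 without 12-1, 117 without 6-3, 118 without 17-0 and 122 without 6-1. Without SAL-LPS 10-2 it was 69, and it was 81 without 9-1, 110 without 3-1, 113 without 3-3 and 166 without 2-0. Without SAL-SAL 4-1 it was 62, without 9-4 74 and without 10-3 142. It was larger without MOR-LPS 18-1 (591) and 13-2 (761), MOR-SAL 18-0 (633), SAL-LPS 1-0 (436) and 10-4 (501), and SAL-SAL 9-0 (429) and 9-2 (473). Of the 10 regions of smallest p in each direction, 19 or 20 stayed called without any 1 library. All 20 had the same sign in every alternative that gave them a value, including the fixed block and lane 7 alone, where limma called 0 of the 20. The alternative limited to regions with a peak in enough libraries of each group gave a value at only 6 of the 20.

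**Figure D1:**
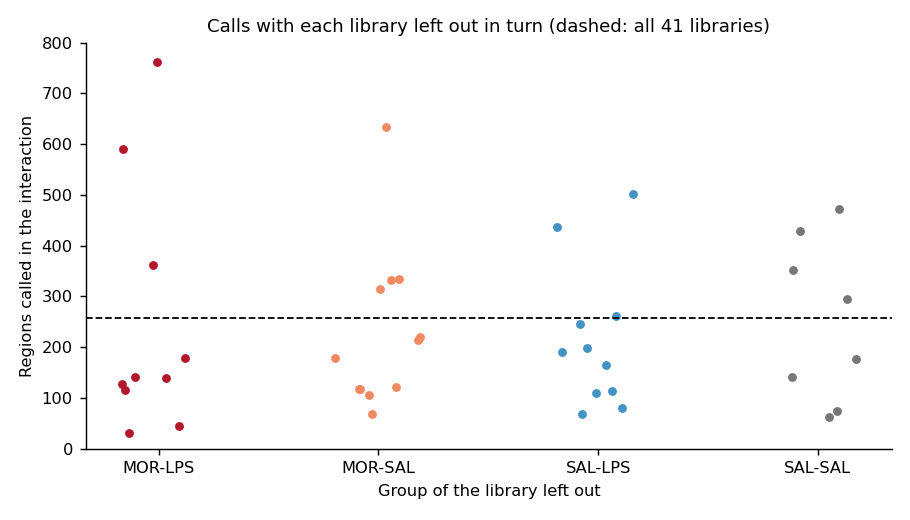
Number of regions called in the interaction (y axis) when 1 hypothalamus library is left out; each point is a library, placed by its group, and the dashed line is the 257 calls with all 41 libraries. The points run from 31 to 761, and every group holds libraries on both sides of the line.

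Sequences are shown for the 300 bases around the peak summit at 4 of the 7 regions called in both forms of the lists, since these regions were called whichever lists were used. They are from GRCm38 (mm10), plus strand, 5′ to 3′. Capitals mark matches on either strand to an E-box (CANNTG), an NF-kB-like motif (GGG, any 5 bases, then CC), an AP-1 site (TGANTCA), a cyclic AMP response element (TGACGTCA) or a GC box (GGGCGG). The windows lie in an intron of Shank2 (chr7:144132985-144133284), an intron of Kcnb2 (chr1:15683351-15683650), between genes near Kcnj5 (chr9:32292767-32293066) and across a coding exon edge of Nfix (chr8:84772223-84772522).
Shank2: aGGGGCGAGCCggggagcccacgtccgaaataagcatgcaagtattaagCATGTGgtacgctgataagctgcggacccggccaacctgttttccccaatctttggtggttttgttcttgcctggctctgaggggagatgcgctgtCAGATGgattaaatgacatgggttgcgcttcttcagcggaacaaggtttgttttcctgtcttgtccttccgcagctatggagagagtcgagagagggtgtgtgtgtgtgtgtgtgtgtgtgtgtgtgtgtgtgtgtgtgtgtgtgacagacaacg
Kcnb2: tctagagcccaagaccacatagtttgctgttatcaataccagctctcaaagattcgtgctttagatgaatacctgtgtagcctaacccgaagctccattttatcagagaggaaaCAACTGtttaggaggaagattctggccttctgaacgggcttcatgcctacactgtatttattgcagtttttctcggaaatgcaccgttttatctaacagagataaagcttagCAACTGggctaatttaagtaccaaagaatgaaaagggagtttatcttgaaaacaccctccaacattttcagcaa
Kcnj5: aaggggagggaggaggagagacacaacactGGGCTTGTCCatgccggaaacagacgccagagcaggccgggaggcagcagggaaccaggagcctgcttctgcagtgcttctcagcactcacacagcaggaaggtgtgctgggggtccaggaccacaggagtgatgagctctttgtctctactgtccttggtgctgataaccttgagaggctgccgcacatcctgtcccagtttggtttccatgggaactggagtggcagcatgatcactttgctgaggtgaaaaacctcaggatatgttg
Nfix: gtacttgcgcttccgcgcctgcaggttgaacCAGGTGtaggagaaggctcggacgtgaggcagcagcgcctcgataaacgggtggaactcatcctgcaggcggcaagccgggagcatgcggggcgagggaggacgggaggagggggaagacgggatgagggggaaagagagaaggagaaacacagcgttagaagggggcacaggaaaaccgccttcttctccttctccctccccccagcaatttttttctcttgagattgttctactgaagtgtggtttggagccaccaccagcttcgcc
The Shank2 and Kcnb2 windows each held 2 E-box matches, the Nfix window 1 and the Kcnj5 window 0, and the Shank2 and Kcnj5 windows each held 1 NF-kB-like match. In the same window an E-box match was present in 79.9% of the positive regions, 84.1% of the negative regions and 78.7% of all 13787 regions on assembled chromosomes. An NF-kB-like match was present in 31.9%, 31.9% and 38.9% of the same sets, and an AP-1 match in 6.94%, 9.73% and 9.42%. These shares were not tested, and a match of letters does not show binding.

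In lists of equal length 1 negative region stayed called in all 41 fits with a library left out. It lies in an intron of Shank2, which encodes a scaffold of excitatory synapses (chr7:144130469-144134108, 41421 bp from the nearest start site). The rank at this region had a lowest, median and highest value of 9.43, 53.6 and 98.7 in MOR-LPS, 45.8, 94.6 and 99.1 in MOR-SAL, 47.4, 91.9 and 98.9 in SAL-LPS, and 16.5, 47.2 and 90.5 in SAL-SAL. MOR-LPS and SAL-SAL libraries were mostly low and the other groups mostly high, with overlap: 9 of 10 MOR-LPS and 8 of 8 SAL-SAL libraries lay under the median of the pooled MOR-SAL and SAL-LPS libraries (93.3). A peak was present in 10 of 10 MOR-LPS, 12 of 12 MOR-SAL, 11 of 11 SAL-LPS and 5 of 8 SAL-SAL libraries. The interaction was −72.3 ± 14.2 points (SE, adjusted p = 0.00203), and −78.5 in lists of equal length (adjusted p = 0.00714). In the full lists it was −66.4 with the neuronal marker share as a term (adjusted p = 0.0210) and −75.2 with the prefix as a fixed block (adjusted p = 0.140). In lists of equal length limma called 0 regions with the neuronal share (lowest adjusted p 0.101, 1743 unadjusted). In lane 7 libraries alone it also called 0 there (lowest adjusted p 0.166, 1662 unadjusted).

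Kcnb2 encodes a voltage-gated potassium channel, and the region in its intron had the largest negative interaction of the consensus set (chr1:15682452-15684751). Its rank was 5.98, 21.0 and 87.4 (lowest, median, highest) in MOR-LPS, 66.1, 84.1 and 99.3 in MOR-SAL, 13.9, 91.1 and 99.1 in SAL-LPS, and 13.5, 50.1 and 96.3 in SAL-SAL. All 10 MOR-LPS libraries lay under the pooled MOR-SAL and SAL-LPS median of 88.6, while the SAL-SAL libraries spread over the whole range. The interaction was −81.8 ± 15.8 points (adjusted p = 0.00187), and −73.6 in lists of equal length (adjusted p = 0.0259). A peak was found in 6 of 10 MOR-LPS, 12 of 12 MOR-SAL, 10 of 11 SAL-LPS and 5 of 8 SAL-SAL libraries.

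Kcnj5 encodes a subunit of the inward rectifier potassium channels that G protein-coupled receptors, opioid receptors among them, open. The region assigned to it lies 48575 bp from its start site (chr9:32290180-32295662), and the assignment is by distance only. Its rank was 10.8, 33.0 and 99.5 in MOR-LPS, 36.5, 87.9 and 100 in MOR-SAL, 67.1, 88.7 and 99.96 in SAL-LPS, and 33.1, 67.4 and 98.1 in SAL-SAL (lowest, median, highest). MOR-LPS was the lowest group, and 5 of its 10 libraries lay under every MOR-SAL and SAL-LPS library. The interaction was −62.9 ± 13.7 points (adjusted p = 0.0108), and −66.8 in lists of equal length (adjusted p = 0.0259).

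Prkcb encodes protein kinase C beta, and the region in its intron (chr7:122476089-122480013) ranked at 37.3 ± 22.7 in MOR-LPS, 82.2 ± 9.23 in MOR-SAL, 71.3 ± 21.4 in SAL-LPS and 41.5 ± 24.8 in SAL-SAL (SD). All 10 MOR-LPS and all 8 SAL-SAL libraries lay under the pooled median of MOR-SAL and SAL-LPS, 82.5. The interaction was −72.7 ± 16.0 points (adjusted p = 0.0108), and −72.0 in lists of equal length (adjusted p = 0.0456).

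The other regions called in both forms of the lists were chosen for the text after their values were seen. On chromosome 9 a region with no protein-coding start site within 100 kb (chr9:101405412-101414631) averaged 63.6 in MOR-LPS, 86.5 in MOR-SAL, 91.5 in SAL-LPS and 62.2 in SAL-SAL, an interaction of −52.2 ± 12.1 points (adjusted p = 0.0141). A region 34886 bp from Xpnpep1, an aminopeptidase gene, averaged 58.1 in MOR-LPS, 86.6 in MOR-SAL, 85.6 in SAL-LPS and 64.3 in SAL-SAL, an interaction of −53.3 ± 12.7 points (adjusted p = 0.0170). Both had the pattern of the Shank2 region, with the groups that received 1 of the 2 agents high. The 1 positive region of the 7 covers a start site of Nfix, a nuclear factor I transcription factor gene (chr8:84769961-84773755).

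The Nfix region had a rank of 5.94, 70.4 and 98.9 in MOR-LPS, 5.55, 12.3 and 44.3 in MOR-SAL, 5.14, 13.2 and 40.4 in SAL-LPS, and 6.71, 16.1 and 97.0 in SAL-SAL (lowest, median, highest). It was high mainly in MOR-LPS, where 7 of 10 libraries lay above every MOR-SAL and SAL-LPS library, and in 1 SAL-SAL library. That library, 9-4, had an oligodendrocyte marker share of 41.7%, and MOR-LPS 15-1, among the 7, one of 33.3%. A peak was called in 8 of 10 MOR-LPS, 1 of 12 MOR-SAL, 2 of 11 SAL-LPS and 1 of 8 SAL-SAL libraries. The interaction was 53.9 ± 13.6 points (adjusted p = 0.0214), and 52.9 in lists of equal length (adjusted p = 0.0456). It was no longer called without SAL-SAL 9-4 (44.9 points, adjusted p = 0.0642), MOR-LPS 14-0 (48.0, 0.0554) or MOR-LPS 14-4 (49.9, 0.0572), nor with the oligodendrocyte (46.5, adjusted p = 0.0597) or neuronal (46.4, adjusted p = 0.0788) marker share as a term.

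**Figure D2:**
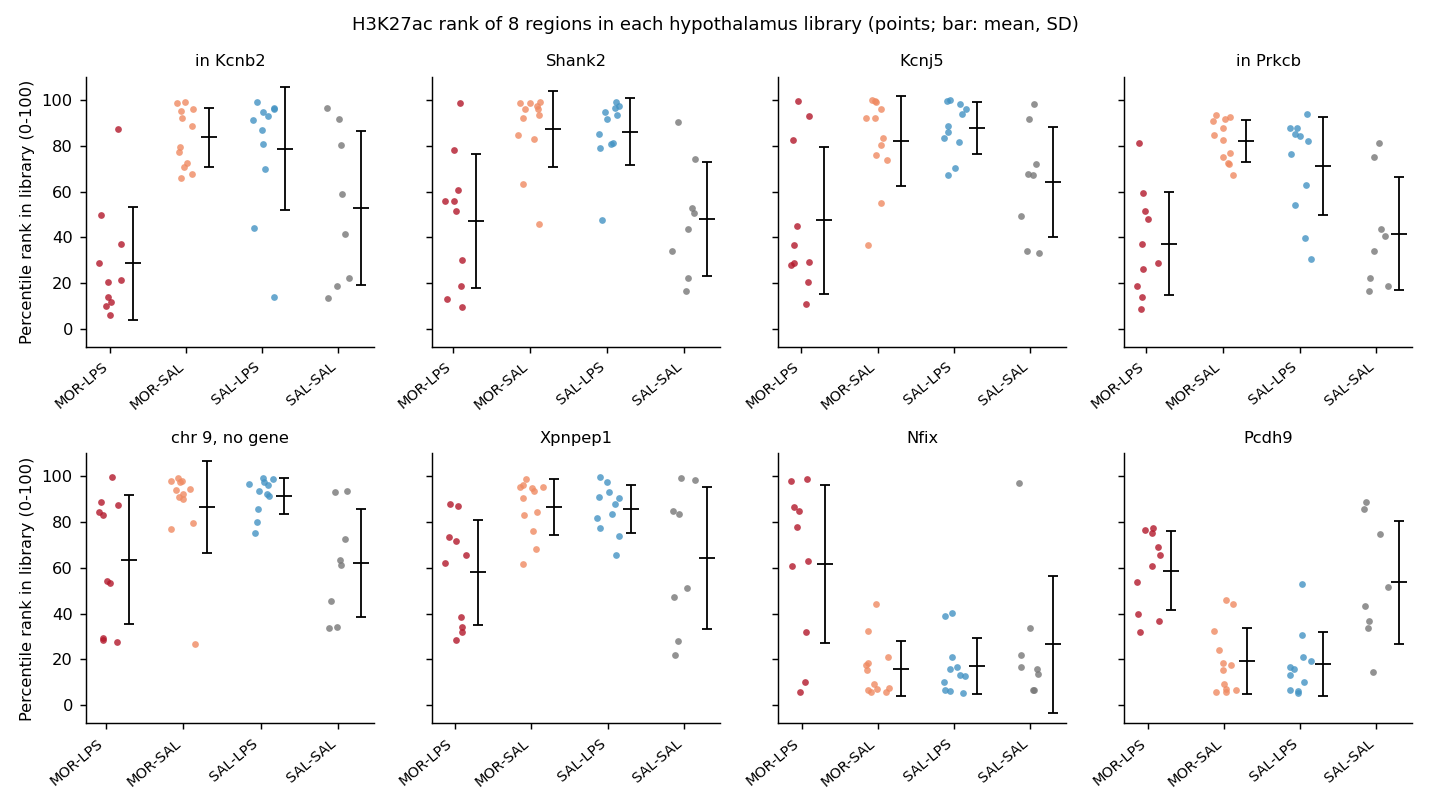
Percentile rank of H3K27ac (y axis, 0 to 100) at 8 regions in each of the 41 hypothalamus libraries, by group; points are libraries and bars are the mean and SD. At Kcnb2, Shank2, Kcnj5, Prkcb, the chromosome 9 region and Xpnpep1 the MOR-LPS mean sits below the MOR-SAL and SAL-LPS means, with single libraries of all groups overlapping, and at Nfix 7 of 10 MOR-LPS libraries sit above all of theirs.

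The largest positive interaction lay in an intron of Pcdh9, a protocadherin gene of neuronal adhesion (chr14:93811884-93815310). Its rank was 32.1, 63.2 and 77.5 in MOR-LPS, 5.55, 16.5 and 45.8 in MOR-SAL, 5.14, 16.0 and 52.8 in SAL-LPS, and 14.6, 47.6 and 88.7 in SAL-SAL (lowest, median, highest). A peak was present in 10 of 10 MOR-LPS and 7 of 8 SAL-SAL libraries, and in 3 of 12 MOR-SAL and 2 of 11 SAL-LPS libraries. The interaction was 77.4 ± 14.6 points (adjusted p = 0.00187), and 53.0 in lists of equal length, where it was not called (adjusted p = 0.0543).

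In an intron of Fryl, the rank averaged 42.9 ± 26.5 in MOR-LPS, 19.9 ± 14.0 in MOR-SAL, 16.7 ± 14.3 in SAL-LPS and 68.8 ± 21.0 in SAL-SAL, an interaction of 71.6 ± 14.4 points (adjusted p = 0.00278). Zbtb20, a zinc finger repressor gene, held a region whose nearest start site is that of Tigit, an inhibitory receptor of lymphocytes. It averaged 67.7 ± 26.8 in MOR-LPS, 16.7 ± 7.46 in MOR-SAL, 16.0 ± 12.4 in SAL-LPS and 35.2 ± 32.4 in SAL-SAL, an interaction of 65.7 ± 14.1 points (adjusted p = 0.0103). A region in Dab1, which encodes an adaptor of reelin signalling, lay nearest to the start of the complement gene C8b and had an interaction of 58.5 ± 14.0 points (adjusted p = 0.0170). The remaining positive regions by the rule lay in Sec14l1 (65.8 ± 14.5 points), in the phospholipase gene Pla2g16 (60.2 ± 13.8), near Gm21885 (71.8 ± 16.6), near the centromere gene Mis18a (55.5 ± 13.1) and at Zeb2 (65.7 ± 15.5 and 63.7 ± 15.2). Their adjusted p ran from 0.0108 to 0.0175, and none was called in lists of equal length.

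Among the negative regions by the rule were introns of Usp29 (−59.4 ± 13.1 points, adjusted p = 0.0108), a ubiquitin peptidase gene, and of Mgat4d (−54.1 ± 12.2). Ptprf, a receptor tyrosine phosphatase gene, had −68.0 ± 15.5 points and averaged 20.5 ± 25.3 in MOR-LPS, 54.6 ± 30.3 in MOR-SAL, 53.3 ± 24.8 in SAL-LPS and 21.9 ± 9.74 in SAL-SAL. Kif26b, a kinesin gene, had −66.5 ± 15.1 points, and the regions chr14:24730979-24733947 and chr6:89046364-89049456, with no start site within 100 kb, had −72.9 ± 16.5 and −73.5 ± 16.9. The adjusted p of these 5 was 0.0141, and in lists of equal length none of the 6 was called.

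**Figure D3:**
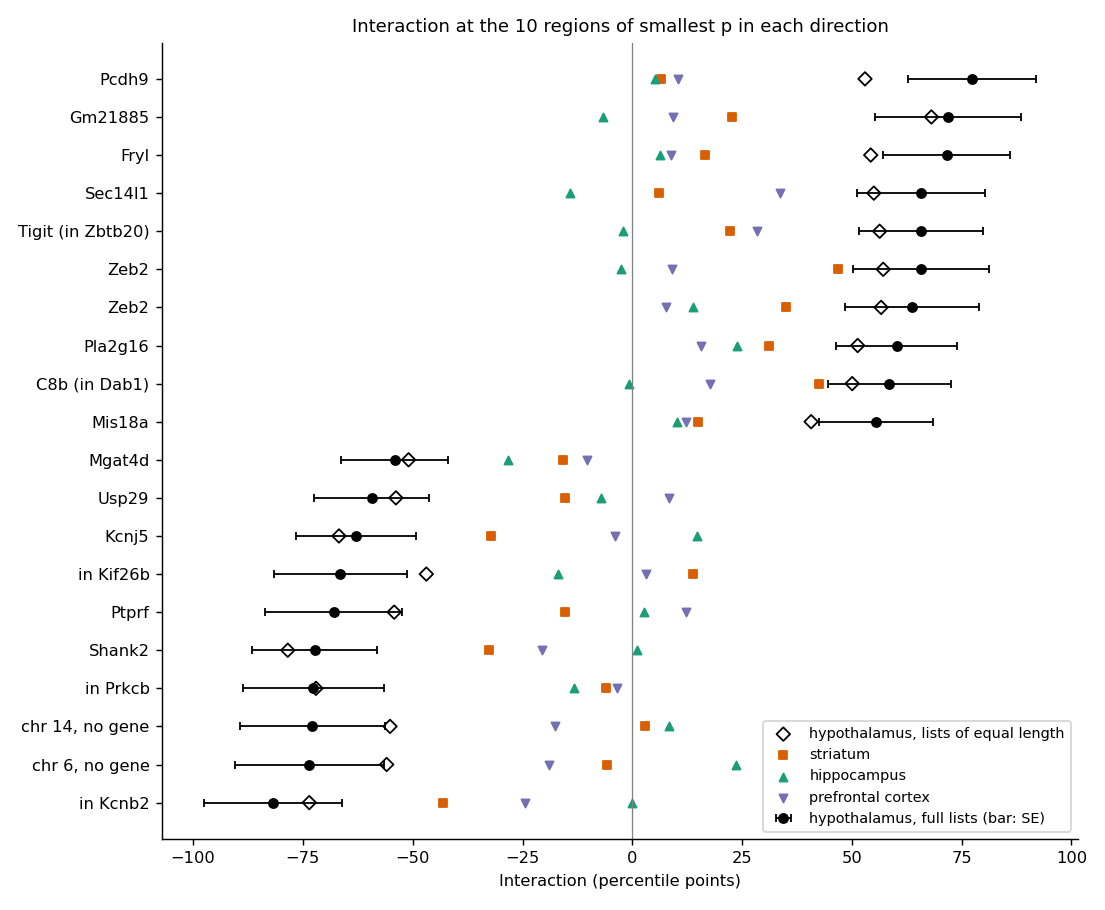
Interaction in percentile points (x axis) at the 10 regions of smallest p in each direction (rows); filled circles with SE bars are the hypothalamus, diamonds the hypothalamus in lists of equal length, and coloured marks the other brain regions over the same regions. The hypothalamus values run from −81.8 to 77.4, and the diamonds keep the sign of the circles at all 20 regions.

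Genes with 2 or more called regions were picked out after their values were seen, and most of these regions lay at 2 transcription factor genes. Zeb2 encodes a zinc finger repressor, and 6 of its 11 regions were called, all positive, with interactions of 46.2 to 65.7 points, while all 11 had a positive value (median 46.2). At the region 67 bp from a Zeb2 start site the rank had a median of 85.6 in MOR-LPS, 15.5 in MOR-SAL, 16.0 in SAL-LPS and 25.2 in SAL-SAL. Every group there held libraries near the floor, with lowest values of 5.94 in MOR-LPS, 5.55 in MOR-SAL, 5.14 in SAL-LPS and 6.71 in SAL-SAL. It was not called without MOR-LPS 14-0 (59.1 points, adjusted p = 0.0507), nor with the neuronal marker share as a term (51.4, adjusted p = 0.0903). The Zeb2 region of 65.7 points was not called with the neuronal share (54.2, adjusted p = 0.0788) or the oligodendrocyte share (55.6, adjusted p = 0.0504) as a term.

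At Nfix 4 of 5 regions were called, with interactions of 53.9 to 58.1 points. Tcf4, a basic helix-loop-helix factor gene that the study named, had positive values at all 22 of its regions (median 34.3), of which 2 were called. Clmn and Mbnl2, a splicing regulator gene, each had 2 of 9 regions called, all positive. Neighbouring regions of 1 gene come from the same libraries and are not separate evidence. In lists of equal length 1 of these 16 called regions was called, at Nfix.

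**Figure D4:**
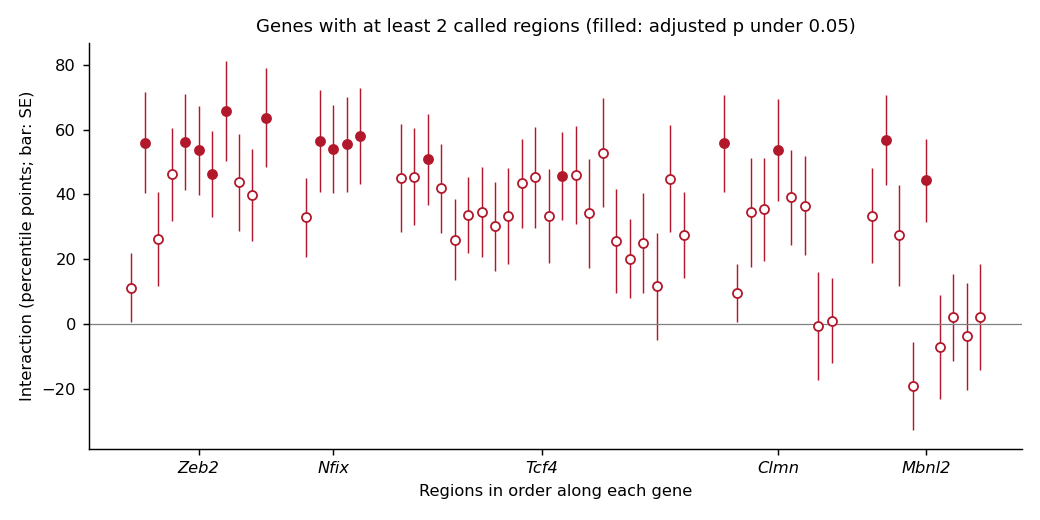
Interaction in percentile points with SE bars (y axis) at each region of the genes with 2 or more called regions (x axis, regions in order along the gene); filled points were called. All 11 Zeb2 regions and all 22 Tcf4 regions lie above 0.

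The positive and the negative regions differed in where they lay, given as counts without a test. Promoters made up 23.6% of the 144 positive regions, 15.9% of the 113 negative regions and 33.4% of all regions, while intergenic regions made up 27.1%, 47.8% and 20.5%. A hippocampus consensus region overlapped 79.9% of the positive and 39.8% of the negative regions, against 58.7% of all. For the prefrontal cortex these shares were 57.6%, 41.6% and 60.2%, and for the striatum 97.2%, 91.2% and 96.3%. At positive regions a median of 80% of the MOR-LPS libraries held a peak, 29.2% of MOR-SAL, 27.3% of SAL-LPS and 62.5% of SAL-SAL. At negative regions these medians were 70%, 91.7%, 90.9% and 62.5% in the same order. Libraries without a peak took the shared low rank set by list length, so low means are in part that rank. The median of the group means over positive regions was 57.3 in MOR-LPS, 21.8 in MOR-SAL, 22.1 in SAL-LPS and 43.2 in SAL-SAL. Over negative regions it was 43.3 in MOR-LPS, 73.7 in MOR-SAL, 74.9 in SAL-LPS and 45.1 in SAL-SAL. The selection by the interaction favours such crossed means, which were present at 143 of 144 positive and 113 of 113 negative regions and at 27.7% and 28.2% of all regions.

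Genes of inflammation had few regions in the neuronal consensus set. Of 27 NF-kB and acute inflammation genes, 10 had a region, and 2 of their 15 regions were called, both positive, against 1.86% of all regions, with a median of 13.4 points. The first lies in Spidr and is nearest to Cebpd, a CCAAT/enhancer-binding protein gene induced by LPS (49.5 ± 12.3 points, adjusted p = 0.0206). It held a peak in 90% of the MOR-LPS libraries, 0% of MOR-SAL, 0% of SAL-LPS and 25% of SAL-SAL. The MOR-SAL and SAL-LPS values there are thus the shared low rank set by list length. This region was not called without MOR-LPS 14-0 (adjusted p = 0.0518) or SAL-SAL 4-1 (adjusted p = 0.0532), nor with the neuronal marker share as a term (42.1 points, adjusted p = 0.0774). The other lies 1093 bp from Zfp36, whose product degrades cytokine mRNA (53.9 ± 16.2 points, adjusted p = 0.04998). Its rank averaged 66.1 ± 29.4 in MOR-LPS, 28.6 ± 18.2 in MOR-SAL, 35.2 ± 27.8 in SAL-LPS and 53.1 ± 20.005 in SAL-SAL. Of 27 interferon response genes 5 had a region and limma called 0 of 7 (1 at an unadjusted p under 0.05), the region of smallest p being in Irf2 (28.6 points, adjusted p = 0.205). Of 12 measured cytokines 2 had a region and limma called 0 of 3 (2 unadjusted). The region near Il12a, the p35 subunit of interleukin-12, had 46.5 ± 15.0 points (adjusted p = 0.0635).

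Glucocorticoid and stress genes had calls in both directions. Of 35 regions near 17 of these 26 genes 3 were called (8.57%, against 1.86% of all regions), and 2 were positive, at a start site of the hypoxia factor gene Hif3a (50.45 ± 14.2 points, adjusted p = 0.0395) and near Pdk4, a pyruvate dehydrogenase kinase gene (41.2 ± 12.3, adjusted p = 0.0485). The region near Gadd45g, a stress-induced gene, was negative (−53.0 ± 14.8 points, adjusted p = 0.0395), with ranks of 26.5 ± 28.5 in MOR-LPS, 33.9 ± 25.2 in MOR-SAL, 57.3 ± 33.6 in SAL-LPS and 16.8 ± 8.76 in SAL-SAL. No SAL-SAL library had a peak there, so that group's value is the shared low rank set by list length. The list's median was 12.2 points. Of 37 regions near 21 of 29 immediate early genes 1 was called (2.70%, against 1.86% of all regions), near the kinase gene Sik1 (−60.8 ± 16.6 points, adjusted p = 0.0354), and the median was 1.87. Limma called 0 of 29 regions near 17 of 22 circadian clock genes (6 unadjusted, median 2.22) and 0 of 55 near 24 of 36 genes of glucose and lipid metabolism (9 unadjusted, median 6.47). The smallest p of these lists were near Tef (36.5 points, adjusted p = 0.0949) and Ppara (38.03, adjusted p = 0.0886).

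Neuronal and opioid genes had medians below 0. Of 78 regions near 27 of 38 opioid system genes 2 were called (2.56%, against 1.86% of all regions), the Kcnj5 region and a positive region in Prkacb, a catalytic subunit of protein kinase A (46.7 ± 13.9 points, adjusted p = 0.0485), with a median of −6.52. Of 203 regions near 36 of 48 synapse and small GTPase genes 3 were called (1.48%, against 1.86% of all regions), in Shank2, in the adhesion gene Sdk2 (−63.6 ± 16.7, adjusted p = 0.0268) and in the AMPA receptor gene Gria1 (43.6 ± 13.0, adjusted p = 0.0494), with a median of −4.21. Of 68 regions near 26 of 37 axon guidance genes 1 was called (1.47%, against 1.86% of all regions), in the netrin receptor gene Unc5a (−63.4 ± 16.5, adjusted p = 0.0256), with a median of −6.86. Hypothalamic neuropeptides and their receptors had 11 regions near 10 of 35 genes, and limma called 0 of them (1 unadjusted, median −11.1). The region of smallest p was at Pomc, the melanocortin and endorphin precursor, with ranks of 50.7 ± 28.5 in MOR-LPS, 72.6 ± 28.8 in MOR-SAL, 52.5 ± 25.1 in SAL-LPS and 36.8 ± 27.1 in SAL-SAL (−34.2 ± 16.8 points, adjusted p = 0.247).

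Regions near cell type markers had values on either side of 0. Of 62 regions near 12 of 16 neuronal markers limma called 0 (12 unadjusted), but the median was −19.8 points and 10 were positive, and the neuronal marker share itself had an interaction of −20.1 percentage points in the group means. Astrocyte markers had a median of 25.4 points over 4 regions, oligodendrocyte markers 11.9 over 17 and endothelial markers 13.6 over 4, and no region was assigned to any of 10 microglial markers. In the full lists, 13 of the 20 regions of smallest p stayed called with the neuronal marker share as a term. Of the called regions of the gene lists, those at Shank2 and Kcnj5 did. Both also stayed called in the full lists without any 1 library. The Unc5a region was not called without MOR-LPS 14-0, MOR-LPS 14-4 or SAL-LPS 10-2 (adjusted p 0.0514 to 0.0699), nor the Sdk2 region without MOR-LPS 14-0, MOR-LPS 14-4, MOR-SAL 16-3 or SAL-SAL 4-1 (adjusted p 0.0512 to 0.0692). Of the 41 fits with a library left out, 28 called the region near Sik1, 27 that near Gadd45g, 24 that at Hif3a, 15 that near Pdk4, and 14 each those at Prkacb, Gria1, Zfp36 and Bag3. The Tcf4 regions were called in 27 and 14 of them.

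**Figure D5:**
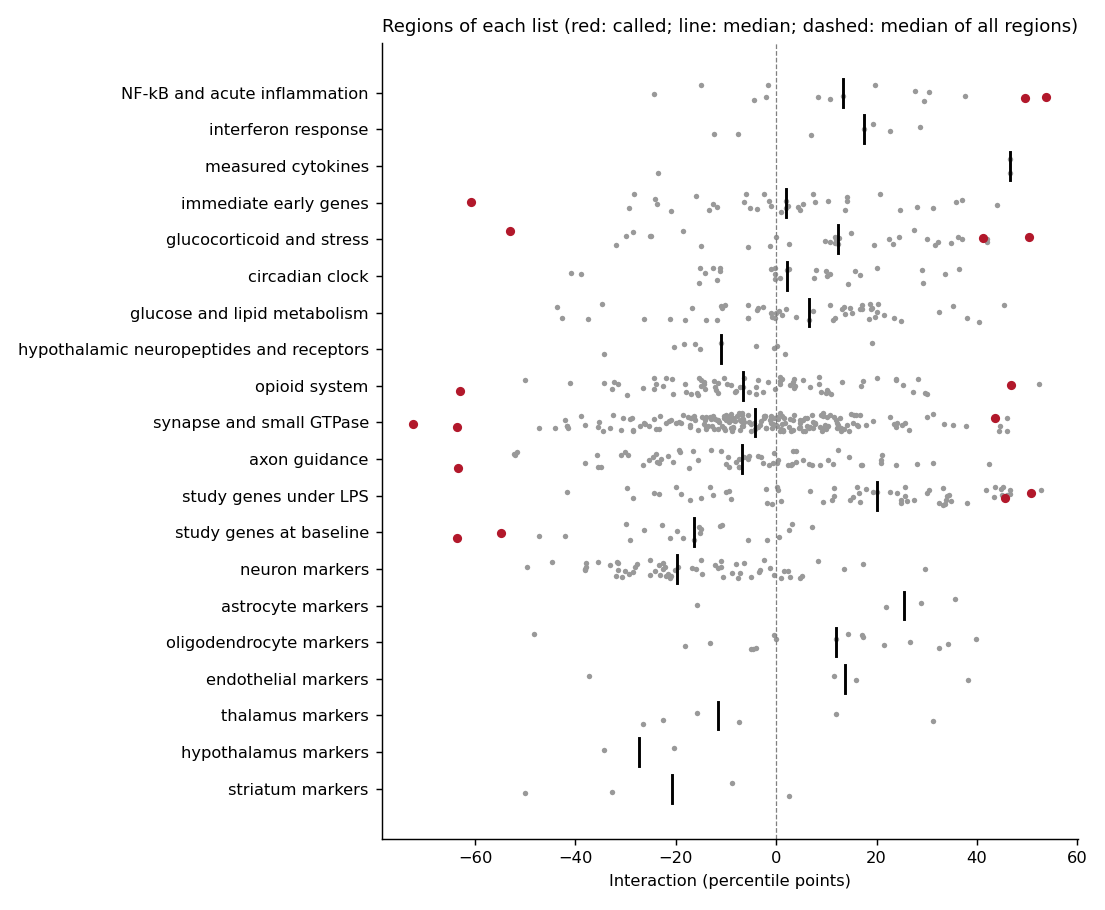
Interaction in percentile points (x axis) of each region (points) in each gene list (rows); red points were called, black lines are list medians and the dashed line is the median of all regions. Neuronal markers have a median of −19.8 and the genes the study named under LPS one of 20.2.

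The genes the study named were not chosen independently of these libraries. For those named under LPS, 48 of 65 regions had a positive interaction (median 20.2), 22 of them the 22 regions of Tcf4, and 2 were called (3.08%, against 1.86% of all regions), both at Tcf4 (50.8 ± 14.1 and 45.6 ± 13.6 points, adjusted p = 0.0395 and 0.0481). For those named at baseline, 4 of 23 were positive (median −16.4) and 2 were called (8.70%), in Sdk2 and near Bag3, a co-chaperone gene (−54.9 ± 16.4 points, adjusted p = 0.0485). The region near Bag3 averaged 52.1 ± 32.9 in MOR-LPS, 72.7 ± 27.2 in MOR-SAL, 67.1 ± 20.9 in SAL-LPS and 36.2 ± 19.0 in SAL-SAL. Among the others, the region of smallest p near Nfkbia, the inhibitor of NF-kB, had 30.5 ± 15.5 points (adjusted p = 0.264) and that at Sbf1 had 43.6 ± 15.2 (adjusted p = 0.0860). The regions near Sort1 (34.8 points), Olfml2b (33.9), Slc27a1 (32.4), Psd3 (25.7), Mgll (24.8) and Cd81 (16.2) were positive in value, and those near Abr (−41.6), Irf2bpl (−29.7), Pck1 (−26.3), Nos1 (−10.8) and Ldha (−5.63) negative. At Bcl6 the interaction was 0.902 points, and none of these 14 was called (adjusted p 0.0860 to 0.981).

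The interaction of the hypothalamus was set against that of 45 striatum, 44 hippocampus and 42 prefrontal cortex libraries over the same 13788 regions. On their own, the striatum libraries had an interaction called at 191 of these regions (1.39%), the hippocampus at 1 (0.00725%) and the prefrontal cortex at 0 by limma (564 at an unadjusted p under 0.05). The regions are those of the hypothalamus consensus set. Of these, 96.3% overlapped a striatum consensus region, 58.7% a hippocampus and 60.2% a prefrontal cortex region. The part of this uneven overlap in the counts and differences was not tested. Oligodendrocyte marker shares in the striatum ran from 0 to 100% in MOR-LPS, 0 to 8.33% in MOR-SAL, 0 to 33.3% in SAL-LPS and 0 to 91.7% in SAL-SAL, and their part in the striatum interaction was not tested. The difference from the striatum was called at 90 regions (0.653%), that from the hippocampus at 69 (0.500%) and that from the prefrontal cortex at 15 (0.109%), of which 35, 36 and 13 were also called within the hypothalamus. The same hypothalamus values enter both calls, so this overlap is not separate evidence. Regions picked by their hypothalamus interaction are favoured to differ. With the animal as a replicate block the differences from the striatum numbered 141 and those from the prefrontal cortex 23. Without sex as a term the striatum differences numbered 42 and the prefrontal cortex differences 0 (limma, 1474 unadjusted). For these comparisons, lists were also cut to 1 length over all brain regions (the strongest 10811 peaks of each library). In those lists 2 of the 15 prefrontal cortex differences were also called. The Pcdh9 region differed from all 3, by 70.8 ± 15.9 points from the striatum, 72.3 ± 15.7 from the hippocampus and 66.9 ± 16.0 from the prefrontal cortex (adjusted p = 0.0117, 0.00955 and 0.0387). In the lists of 10811 peaks its adjusted p was 0.0377, 0.123 and 0.113 in the same order. Without sex as a term its difference from the prefrontal cortex was not called. The regions at Kcnb2 (−81.6 ± 20.6 points, adjusted p = 0.0303) and Kcnj5 (−77.7 points, adjusted p = 0.0218) differed from the hippocampus, the first of them not in the lists of 10811 peaks (adjusted p = 0.0965). Their differences from the striatum (adjusted p = 0.399 and 0.474) and from the prefrontal cortex (adjusted p = 0.253 and 0.176) were not called, and in the striatum itself the values were −43.1 and −32.2 points. Over the 144 positive regions the median interaction was 19.7 points in the striatum, 3.87 in the hippocampus and 9.08 in the prefrontal cortex, and over the 113 negative regions it was −5.73, −2.95 and −3.41.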

How the data were processed

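H3K27ac MOWChIP-seq was analysed from NeuN+ nuclei of the hypothalamus, with the other brain regions for comparison only. Before deposit the authors took trimmed reads (Trim Galore 0.6.7) through Bowtie2 2.4.5 against mm10, dropped duplicates in SAMtools 1.15.1, and ran MACS2 2.2.7.1 on each library (q-value threshold 0.05). DiffBind 3.10.1 gave the consensus sets. The deposited narrowPeak lists hold a MACS2 score, a fold enrichment over background (a ratio), −log10 p and −log10 q per peak, and the deposited consensus sets hold positions alone. No read counts per region were used here, so the count test of the study's methods was replaced by ranks. The 32 input libraries have no peak list used here. A prefrontal cortex SAL-SAL library with 4371 peaks (under the minimum of 10000) was left out, and 2 hippocampus libraries with the same list were counted as 1.

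A peak counted for a region when they shared at least 1 bp. Ranks were fitted with limma 3.58.1 in R 4.3.3 (a mean per group, sex as a covariate, a trended prior, two-sided), and p was adjusted by the Benjamini-Hochberg method over all 13788 regions, with calls at an adjusted p under 0.05. A script tested on simulated ranks called 1% of 200 regions shifted by 30 points, 9.5% of those shifted by 45 and 20% of those shifted by 60. It also called 3 of 13188 regions that were not shifted. The simulated noise was independent between regions, and the shift was in MOR-LPS only. Library-wide differences and tied low ranks were not simulated, so these shares are not error rates for the real libraries. Regions were assigned in GENCODE M21 to the nearest protein-coding start site within 100 kb, and also to the gene that holds their midpoint. A promoter had a start site inside or within 1 kb, and assignment by distance does not show a target.

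Regions named were the 10 of smallest p in each direction, the called regions of each list (at most 5 in each direction, or the region of smallest p), and the region of smallest p of each study gene, except 1 that is not reported here. The members and lists were chosen with earlier results of these data known. The prefix of an animal's identifier is its litter in the study's supplement. Of 18 prefixes, 8 hold both adult treatments (5 morphine, 3 saline, 26 libraries), and the 20 pairs within them had deviations correlated at a median of −0.0586 (−0.349 to 0.321, 2 over 0.1), against 0.00409 between prefixes, so the pairing rests on the litter and not on the values. The study did not use litter as a covariate. Its methods count more litters over the 4 groups than the 18 prefixes, and how the counts relate was not resolved here. Alternatives changed the measure, the filter, the model, the covariates, the litter term and the libraries.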

Additional observations from a re-analysis of the deposited data

Results flagged for a closer look

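A library far from the rest of its group by Dixon's criterion was found in 7 of 58 groups of values examined. Chance gives about 1 in 20 for independent values without ties. Marker shares and low ranks here hold many ties, so 7 of 58 cannot be set against that rate. In MOR-LPS, library 15-1 had an oligodendrocyte marker share of 33.3% and library 7-1 a thalamic marker share of 12.5%. MOR-LPS 18-1 was the highest of its group at Kif26b (rank 58.6) and at Ptprf (87.0), and MOR-LPS 14-0 the lowest near Gm21885 (13.9). In SAL-SAL, library 3-2 was the highest at chr6:89046364-89049456 (83.7) and library 9-4 at Nfix (97.0).

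Several of the named regions had an interaction in the hypothalamus that differed from that of another brain region by a test of the difference (limma, adjusted p under 0.05). These regions were chosen for a small p in the hypothalamus, and the same hypothalamus values enter the difference. The selection therefore favours large differences, and they are not separate evidence. Against the striatum the difference was 70.8 points at Pcdh9, −75.8 at chr14:24730979-24733947 and −80.2 at Kif26b. Against the hippocampus it was 72.3 at Pcdh9, 79.9 at Sec14l1 and 78.4 near Gm21885, and −81.6 at Kcnb2, −77.7 near Kcnj5, −81.3 at the chromosome 14 region, −70.7 at Ptprf and −97.2 at the chromosome 6 region. Against the prefrontal cortex it was 66.9 at Pcdh9, −69.7 at Kif26b and −80.2 at Ptprf. The prefrontal cortex libraries were made with another kit than the hypothalamus libraries, so kit and brain region cannot be told apart there.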

How the results depend on the processing

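Among 9930 regions with a peak in at least 50% of each group, 32 were called, 3 positive and 29 negative. The 257 calls became 7 in lists of equal length and 418 with the log10 number of peaks as a term. By log2 fold enrichment they became 64, and with peaks of −log10 q of at least 3 they became 94. They became 553 without sex, 6 in females, 4 in males, 81 without the trended prior, 963 with library weights, 21 with the neuronal, 68 with the oligodendrocyte and 397 with the thalamic marker share as a term. With the prefix as a random replicate block 249 regions were called, as a fixed block 0 (1389 at an unadjusted p under 0.05), and in lane 7 libraries alone 0 (1839). Calls numbered 246 to 321 under the other alternatives, and 31 to 761 with a library left out. In lists of equal length, the 7 calls became 3 with the prefix as a random block, 0 as a fixed block (1324 unadjusted), 0 with the neuronal share (1743), 70 with the thalamic share, 0 in lane 7 alone (1662) and 1 to 304 with a library left out. Differences from the striatum numbered 141 with the animal as a replicate block and 42 without sex, against 90. Those from the prefrontal cortex numbered 23 and 0 (1474 unadjusted) in the same order, and 7 in the lists of 10811 peaks, against 15. Naming style, lane 7 and all alternatives within lists of equal length were added after the data were seen. The cause of these shifts was not tested.

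The 20 regions of smallest p kept their sign under each alternative that gave them a value. The filter on the share of each group with a peak left only 6 of the 20 with a value, and all 6 kept their sign. The alternatives refit the same libraries, or a part of them, at regions chosen for a small p. Their agreement in sign is therefore not separate evidence. Of the regions named, those not called reversed in 12 cases. In males alone Tcf7l2, a thalamic marker, had −7.31 points (31.3 with all libraries), Slc27a1 −18.6, Nos1 0.955 and Bcl6 −18.6. With the fixed block Cd81 had −11.5 and Nos1 1.86. Bcl6 had −1.24 by fold enrichment rank, −0.154 by log2 fold enrichment, −6.01 with library weights, −0.242 and −2.68 with the neuronal and oligodendrocyte shares and −0.659 with naming style. With a library left out Bcl6 ran from −4.36 to 10.7 and Ldha from −12.6 to 0.328. Peak lists without read depth, 8 SAL-SAL libraries of which 2 were male, and a tied rank that depends on list length limit all values.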
